A study of Homo sapiens with 12 samples.

Results

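CXCL8, CSF2, NFKB2, ICAM1 and IL1R1 are genes of the NF-kB pathway that were picked by name from an expression table that was deposited for SW480, an established line of human colorectal adenocarcinoma cells. All 5 were found by their gene symbol among the 3699 genes of the table. RNA was sequenced from 12 libraries in 4 groups of 3. The GLY_PUE cells received both agents for 12 h, the GLY cells received GLY for 12, 13 and 14 h according to the sample labels of replicates 1, 2 and 3, the PUE cells received PUE for 12 h, and the untreated cells received neither. The growth protocol gives 12 h for every treatment, after 12 h of seeding in medium with 10% serum that all groups shared. The agents are named by the abbreviations of the labels. The label time and the replicate number of the GLY libraries cannot be told apart. No genotype change is named for any group, and the cell line field gives SW480 for all 12 libraries, although a second field counts the name up by 1 from library to library.

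NF-kB is a family of dimeric transcription factors that inhibitor proteins hold in the cytoplasm until a signal, such as interleukin 1 or tumour necrosis factor at its receptor, releases them to the nucleus. In the canonical branch the dimers contain RELA or REL, and in the noncanonical branch the p100 protein encoded by NFKB2 is processed to p52, which pairs with RELB. CXCL8 (interleukin 8, a chemokine that attracts neutrophils), CSF2 (the growth factor GM-CSF), ICAM1 (an adhesion protein that leukocyte integrins bind) and NFKB2 itself are textbook targets of the pathway. IL1R1 is the signalling receptor for interleukin 1 and stands upstream of it. Epithelial tumour cells are a known source of CXCL8.

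CXCL8 and ICAM1 hold letters through which NF-kB is known to bind. CSF2 is a known target whose window matched none of the patterns searched. The promoters of these 3 genes are shown. Each is the stretch of 250 bases before the RefSeq transcription start on the plus strand of GRCh38.p14, at chr4:73740319-73740568 for CXCL8, chr5:132073539-132073788 for CSF2 and chr19:10270870-10271119 for ICAM1. Capitals mark matches to the kB letters GGAATTTCC or to the AP-1 letters TGANTCA, searched on both strands.
CXCL8: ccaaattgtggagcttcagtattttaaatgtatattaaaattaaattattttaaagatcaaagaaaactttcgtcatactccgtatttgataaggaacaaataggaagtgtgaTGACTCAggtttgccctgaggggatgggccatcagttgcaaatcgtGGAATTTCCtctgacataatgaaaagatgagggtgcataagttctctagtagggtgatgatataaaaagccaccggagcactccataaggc
CSF2: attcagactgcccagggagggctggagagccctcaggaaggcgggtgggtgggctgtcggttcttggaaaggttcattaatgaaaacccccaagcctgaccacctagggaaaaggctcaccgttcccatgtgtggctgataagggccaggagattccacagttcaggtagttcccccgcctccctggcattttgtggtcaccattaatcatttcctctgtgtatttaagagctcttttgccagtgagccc
ICAM1: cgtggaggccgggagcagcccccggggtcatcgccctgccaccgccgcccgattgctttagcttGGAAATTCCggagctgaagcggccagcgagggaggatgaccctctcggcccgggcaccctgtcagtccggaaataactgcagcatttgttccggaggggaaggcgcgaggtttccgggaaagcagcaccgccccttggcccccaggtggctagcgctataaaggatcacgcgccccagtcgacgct
The CXCL8 window held GGAATTTCC at 91 to 83 bases before the start and TGACTCA at 137 to 131 bases before it. The ICAM1 window held GGAATTTCC on the minus strand, 186 to 178 bases before the start. The kB letters occurred within such windows of 0.50% of all 27305 genes in the RefSeq promoter table and of 0.85% of the 2697 genes of the deposited table that matched it. TGANTCA occurred in 8.06% and 7.82% of the same sets of genes. The kB letters were set before the search as a known site, with these genes already chosen. Their shares therefore do not test the matches in CXCL8 and ICAM1. RefSeq gives NFKB2 3 starts and IL1R1 4. The degenerate NF-kB consensus of 10 letters matched in 2 of the NFKB2 windows, among others with GGGACTTTCC at 21 to 12 bases before the third start (window chr10:102395455-102395704). That consensus was found in 6.28% of all genes and overlaps the kB letters in part. It matched in neither the CXCL8 nor the ICAM1 window. The search found none of the 3 patterns in the CSF2 window or in the 4 IL1R1 windows. A match is a description of letters and not a bound site, and a window without one says nothing about the factor.

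Levels are given as FPKM, the authors' expression value, in which reads are scaled by gene length and library total. NFKB2 was the most abundant of the 5 genes in every group. It averaged 33.8 ± 1.92 FPKM in GLY_PUE, 42.7 ± 14.7 in GLY, 19.0 ± 5.29 in PUE and 19.6 ± 5.29 in untreated cells (SD, n = 3 each). In PUE and untreated cells ICAM1 came next, with no overlap with NFKB2 or with CSF2. In GLY_PUE and GLY cells CSF2 and ICAM1 came next and overlapped in FPKM between libraries. Within libraries, CSF2 was above ICAM1 in all 3 of GLY and in 2 of GLY_PUE. CXCL8 and IL1R1 were the lowest in all 4 groups and overlapped each other in each of them, and in PUE cells CSF2 overlapped both as well.

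**Figure D1:**
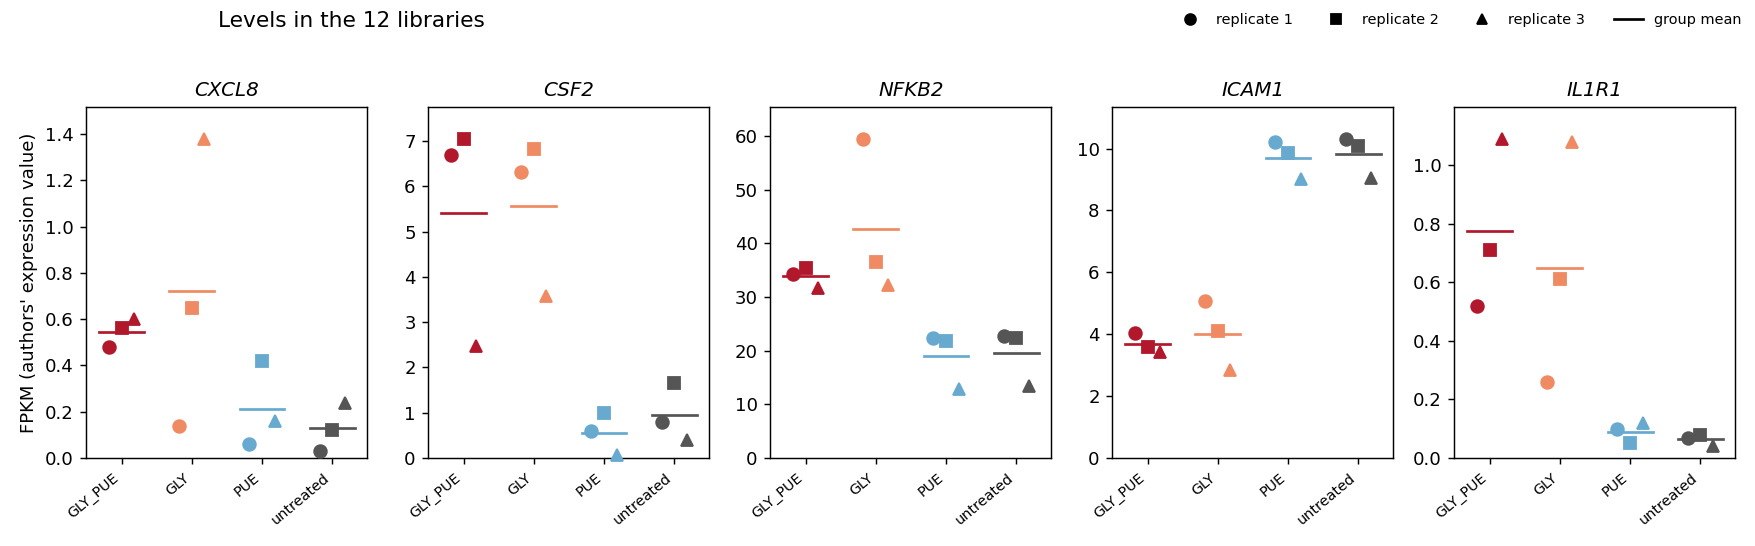
FPKM (vertical axes, linear and different for each gene) of the 5 genes in the 12 libraries, with 1 point for each library and a bar for the group mean. CXCL8, CSF2, NFKB2 and IL1R1 have higher means in GLY_PUE and GLY than in PUE and untreated cells, while ICAM1 lies at 2.84 to 5.07 FPKM in GLY_PUE and GLY and at 9.03 to 10.3 FPKM in PUE and untreated libraries.

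The libraries held 19.68 to 21.36 M reads each, of which the listed genes took 13.8% to 15.4%. Within groups, the libraries numbered 1 and 2 were close in PUE and in untreated cells, with a mean chi-square per gene of 2.13 and 2.67, where sampling noise alone gives about 1. Against their replicate 3 the same measure was 70.4 to 76.4. The replicates of GLY_PUE differed by 5.10 between numbers 1 and 2 and by 52.2 and 62.1 against number 3, and in GLY all 3 libraries stood apart, with 74.9 to 257. The labels do not say whether replicates were separate cultures, and the p-values therefore measure only how these libraries differ, which may be technical. Results without the 4 libraries numbered 3 are given where they change a call of the 5 genes, and not throughout for other genes. Every gene of the table passed the authors' own threshold for change in at least 1 of their comparisons of these libraries, so the 5 genes were in the table because they had changed, and the calls below are not independent evidence of a response. In these bulk samples, fewer cells of a type and less RNA per cell cannot be told apart.

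GLY against untreated cells addresses the effect of GLY alone. CXCL8, CSF2, NFKB2 and IL1R1 rose and ICAM1 fell in GLY cells, by edgeR's quasi-likelihood test at a Benjamini-Hochberg adjusted p under 0.05 over 3429 genes. Of all genes tested, 19.7% were called higher and 64.6% lower in this comparison, 84.3% in all. The median log2 fold change of all genes was -1.15. Library totals were used for scaling. Scaling by TMM within the table, which sets the middle of the listed genes near 0, moves the log2 fold changes up by a median of 1.13 and leaves the call of the 4 higher genes in place, while the call of ICAM1 ends. Under TMM 23.7% of genes were called higher and 10.1% lower.

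CXCL8, the chemokine, was covered by few reads. It had 17, 20 and 21 reads in the GLY_PUE libraries, 5, 23 and 49 in GLY, 2, 9 and 5 in PUE and 1, 4 and 7 in untreated cells, in the order of replicates 1, 2 and 3. The GLY_PUE libraries were alike and lay above every PUE and untreated library, whereas the GLY libraries ran across a wide range and the lowest of them, with 5 reads, lay under the highest untreated one. In FPKM the means were 0.547 ± 0.0611 in GLY_PUE, 0.723 ± 0.623 in GLY, 0.213 ± 0.186 in PUE and 0.130 ± 0.105 in untreated cells (SD, n = 3 each). The fitted log2 fold change in GLY against untreated cells was 2.57 (SE 0.78, 95% interval 0.89 to 4.25), with an adjusted p of 0.00992 by edgeR. When GLY replicate 3, the library labelled 14 h, was left out, the value became 1.70 (adjusted p = 0.0633), and without the 4 libraries numbered 3 it was 2.35 with an adjusted p of 0.0726. It was 3.22 without untreated replicate 3 (adjusted p = 0.0138). With only the GLY and untreated libraries, CXCL8 did not pass the filter on low counts. The call in GLY thus has no counterpart from these libraries alone. PUE replicate 1, with 2 reads, and untreated replicate 1, with 1, were under the 3 counts that a count of 0 allows.

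CSF2, the growth factor, was higher in every library with GLY. It had 107, 112 and 39 reads in the GLY_PUE libraries, 100, 109 and 57 in GLY, 9, 15 and 1 in PUE and 12, 25 and 6 in untreated cells. Every GLY_PUE and GLY library lay above every PUE and untreated library, and in GLY against untreated cells 17.7% of all genes tested were higher without overlap. Replicate 3 was the lowest in each of the 4 groups. The means were 5.41 ± 2.55 FPKM in GLY_PUE, 5.57 ± 1.75 in GLY, 0.553 ± 0.462 in PUE and 0.950 ± 0.645 in untreated cells (SD, n = 3 each). GLY cells had 5.83 times the CSF2 of untreated cells, a log2 fold change of 2.54 (SE 0.65, 95% interval 1.12 to 3.96, adjusted p = 0.00447 by edgeR). It was 3.21 without untreated replicate 2 and 2.17 without untreated replicate 3, and it passed the threshold without any 1 library. Replicate 3 lay below the mean of replicates 1 and 2 by a log2 difference of -1.47 in GLY_PUE, -0.87 in GLY, -2.98 in PUE and -1.47 in untreated cells. The median of all listed genes shifted the other way, by 0.16 to 0.29. Within each replicate number the log2 difference of GLY from untreated cells was 2.94, 2.01 and 3.07 for numbers 1, 2 and 3.

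IL1R1, the interleukin 1 receptor, was covered by at most 12 reads a library without GLY. It had 55.67, 73.27 and 111.01 estimated reads in the GLY_PUE libraries, 28.13, 64.23 and 112.11 in GLY, 10.28, 5.02 and 12 in PUE and 6.82, 7.73 and 4.46 in untreated cells. The lowest GLY library, with 28.13 reads, lay above the highest PUE or untreated library, with 12, so the groups did not overlap, beside 17.7% of all genes higher without overlap in GLY against untreated cells. In FPKM this was 0.773 ± 0.290 in GLY_PUE, 0.650 ± 0.412 in GLY, 0.0900 ± 0.0361 in PUE and 0.0633 ± 0.0208 in untreated cells (SD, n = 3 each). With a log2 fold change of 3.32 (SE 0.56, 95% interval 2.12 to 4.53) in GLY against untreated cells and an adjusted p of 0.000418 by edgeR, it had the largest fitted rise of the 5 genes in this comparison. Leaving out 1 library gave 2.76 to 3.69, the lowest value without GLY replicate 3, and the value without the 4 libraries numbered 3 was 2.52 with an adjusted p of 0.00668.

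NFKB2, the p100 and p52 subunit, was covered by many more reads. It had 2118, 2171 and 1931 reads in the GLY_PUE libraries, 3505, 2351 and 1989 in GLY, 1343, 1289 and 781 in PUE and 1332, 1312 and 804 in untreated cells. All GLY_PUE and GLY libraries lay above all PUE and untreated libraries, beside 17.7% of all genes without overlap on the higher side in GLY against untreated cells. GLY replicate 1 was far above the other GLY libraries, at 59.48 FPKM against 36.44 and 32.14. The log2 fold change in GLY against untreated cells was 1.11 (SE 0.30, 95% interval 0.47 to 1.75, adjusted p = 0.00519 by edgeR), and 0.84 (adjusted p = 0.0126) when GLY replicate 1 was left out. Replicate 3 lay below the mean of replicates 1 and 2 in all groups, by a log2 difference of -0.14 in GLY_PUE, -0.53 in GLY, -0.71 in PUE and -0.73 in untreated cells.

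ICAM1, the adhesion protein, was the only one of the 5 genes with fewer reads after GLY. It had 275.88, 243.95 and 232.27 estimated reads in the GLY_PUE libraries, 344.27, 281.09 and 194.54 in GLY, 657.77, 643.83 and 570.12 in PUE and 670.09, 650.75 and 588.27 in untreated cells. The groups with GLY lay below those without it, with no overlap, as did 65.6% of all genes in GLY against untreated cells. It averaged 3.68 ± 0.312 FPKM in GLY_PUE, 4.003 ± 1.12 in GLY, 9.70 ± 0.603 in PUE and 9.82 ± 0.682 in untreated cells (SD, n = 3 each). The log2 fold change in GLY against untreated cells was -1.29 (SE 0.24, 95% interval -1.81 to -0.78, adjusted p = 0.000667 by edgeR), beside a median of -1.15 over all genes tested. Under TMM scaling it was -0.11 with an adjusted p of 0.899, and under RLE, the median-ratio scaling, -0.18 with an adjusted p of 0.765. ICAM1 thus fell as a share of all reads, and relative to the middle of the listed genes no difference passed the test.

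**Figure D2:**
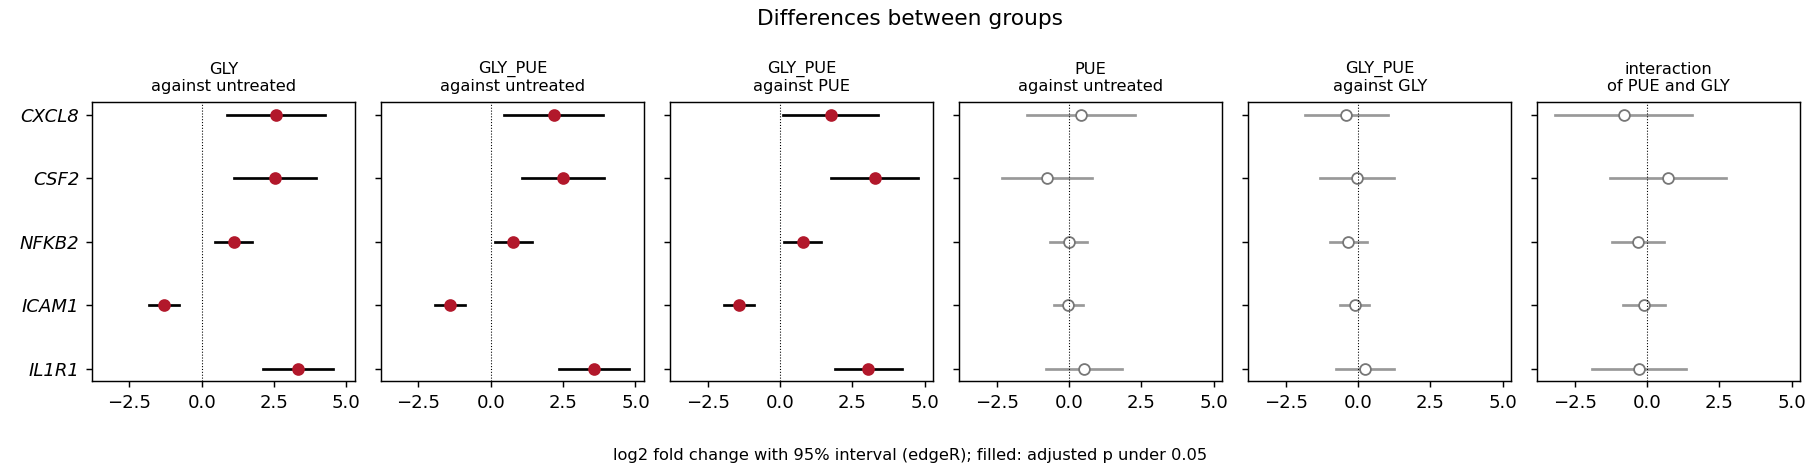
Log2 fold changes (horizontal axes, library totals as scaling) of the 5 genes with their 95% intervals in 5 comparisons and in the interaction of PUE and GLY, by edgeR; filled points have an adjusted p under 0.05. The comparisons with GLY on one side have 4 genes to the right of 0 and ICAM1 to the left, where TMM scaling ends the call of ICAM1, and no point is filled in PUE against untreated cells, in GLY_PUE against GLY or in the interaction.

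GLY_PUE against untreated cells addresses the 2 agents together. CXCL8, CSF2, NFKB2 and IL1R1 were again higher and ICAM1 lower, in a comparison in which 77.3% of all genes tested were called, 20.2% higher and 57.1% lower. The GLY and GLY_PUE comparisons share the untreated libraries. The median over all genes was -1.03, and TMM scaling, under which 23.8% of genes were called higher and 11.5% lower, moves the values up by a median of 1.01. All 5 genes were without overlap between the groups, 4 higher and 1 lower, as were 21.9% of genes on the higher and 65.5% on the lower side.

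IL1R1 again had the largest fitted rise of the 5 genes, a log2 fold change of 3.56 (SE 0.56, adjusted p = 0.000295 by edgeR). CSF2 rose by 2.50 (SE 0.65, adjusted p = 0.00527), or by 3.17 without untreated replicate 2. CXCL8 rose by 2.17 (SE 0.78, adjusted p = 0.0245), a call that rested on single libraries. The CXCL8 value was 2.14 without GLY_PUE replicate 2 (adjusted p = 0.0513), 2.10 without GLY_PUE replicate 3 (adjusted p = 0.0520), 1.72 without untreated replicate 1 (adjusted p = 0.0797) and 2.17 without untreated replicate 2 (adjusted p = 0.0583), and it was 2.82 without untreated replicate 3 (adjusted p = 0.0264). NFKB2 rose by 0.78 (SE 0.29, adjusted p = 0.0291), less than a doubling. Its call ended without GLY_PUE replicate 1 (0.77, adjusted p = 0.0671), without GLY_PUE replicate 2 (0.74, adjusted p = 0.0714) and without untreated replicate 3 (0.57, adjusted p = 0.112). ICAM1 fell by 1.42 on the log2 scale (SE 0.24, adjusted p = 0.00045), and under TMM the value was -0.42 with an adjusted p of 0.371.

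**Figure D3:**
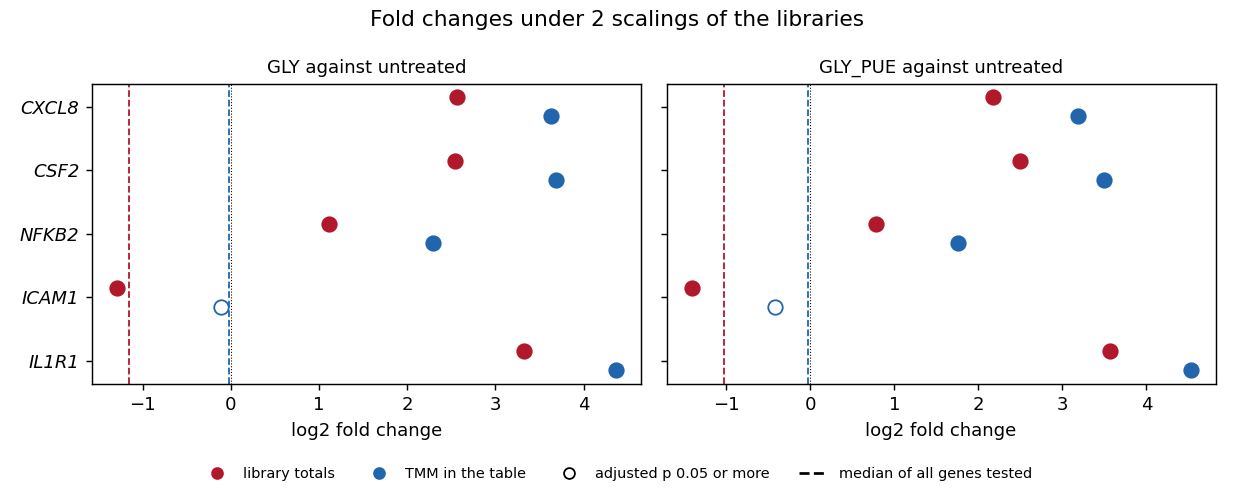
Log2 fold changes against untreated cells (horizontal axes) of the 5 genes under library totals and under TMM within the table, by edgeR, with the median of all 3429 genes under each scaling as a dashed line; open points have an adjusted p of 0.05 or more. ICAM1 lies close to the median line of its own scaling and is open under TMM in both comparisons, while the other 4 genes stay filled.

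GLY_PUE against PUE addresses GLY in the presence of PUE and shares the GLY_PUE libraries with the comparison before. Its fold changes use none of the untreated or GLY libraries, while its SEs and p-values come from a spread estimated over all 12. Here, too, CXCL8, CSF2, NFKB2 and IL1R1 were called higher and ICAM1 lower, beside 20.6% and 57.3% of all genes tested and 77.8% in either direction. Under TMM these shares were 24.2% and 11.7%. The 5 genes did not overlap between the groups, as was the case for 22.0% of genes on the higher and 65.8% on the lower side. CSF2 rose most, with a log2 fold change of 3.27 (SE 0.69, adjusted p = 0.00159 by edgeR), 9.65 times its level in PUE cells. It was 3.98 without PUE replicate 2 and 2.76 without PUE replicate 3, which had 1 read. IL1R1 rose by 3.05 (SE 0.54, adjusted p = 0.000559). ICAM1 fell by 1.40 (SE 0.24, adjusted p = 0.000479), and had -0.38 with an adjusted p of 0.419 under TMM.

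The remaining calls of GLY_PUE against PUE were close to the threshold. CXCL8 rose by 1.75 on the log2 scale (SE 0.76, adjusted p = 0.0487 by edgeR), and 0.0505 was the adjusted p when genes with low counts were kept. Leaving out any 1 library other than PUE replicate 2 ended this call. The CXCL8 values were 1.37 without PUE replicate 1 (adjusted p = 0.145), 1.72 without PUE replicate 3 (adjusted p = 0.106), and 1.84, 1.73 and 1.69 without GLY_PUE replicates 1, 2 and 3 (adjusted p = 0.0752, 0.0906 and 0.0931). Without the 4 libraries numbered 3 it was 1.66 with an adjusted p of 0.122. NFKB2 rose by 0.79 (SE 0.29, adjusted p = 0.0278). Its call ended without PUE replicate 3 (0.58, adjusted p = 0.107) and without GLY_PUE replicates 1 and 2 (0.77 and 0.75, adjusted p = 0.0640 and 0.0687).

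PUE against untreated cells addresses PUE alone, and GLY_PUE against GLY its effect in the presence of GLY. No gene of the table passed the threshold in either by edgeR, so 0% of genes were called. At an unadjusted p under 0.05 there were 12 of 3429 genes (0.35%) in PUE against untreated cells and 57 (1.66%) in GLY_PUE against GLY, none of them among the 5 genes. These shares lie below the 0.05 that is expected without any difference. The fit was thus conservative here, and an absence of calls does not show an absence of an effect. With the replicate number as a block the counts were 19 and 115, again with 0 genes called. DESeq2 called 0 in both as well. None of the 5 genes was without overlap between the groups in either comparison, where 1.52% and 3.30% of genes lay higher and 1.66% and 1.57% lower without overlap.

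The intervals of the main fit, which has no block for the replicate number, show which differences that fit leaves possible. In PUE against untreated cells the log2 fold change of NFKB2 was -0.01 (95% interval -0.64 to 0.63) and that of ICAM1 was -0.02 (-0.52 to 0.49). For the genes with few reads the intervals were wide, with 0.41 (-1.47 to 2.29) for CXCL8, -0.77 (-2.33 to 0.79) for CSF2 and 0.51 (-0.79 to 1.82) for IL1R1. With the replicate number as a block, CSF2 had -0.81 (-1.76 to 0.14) and again did not pass. Its log2 differences within numbers 1, 2 and 3 were -0.39, -0.74 and -2.07, the last with 1 read in PUE. In GLY_PUE against GLY the value was -0.33 (-0.97 to 0.30) for NFKB2, -0.12 (-0.63 to 0.39) for ICAM1, -0.40 (-1.84 to 1.04) for CXCL8, -0.04 (-1.32 to 1.23) for CSF2 and 0.24 (-0.77 to 1.25) for IL1R1. Without the block, changes of more than 2-fold in either direction lay outside the intervals of NFKB2 and ICAM1 in both comparisons. They lay inside those of CXCL8, CSF2 and IL1R1 in at least 1 direction. With the block the CSF2 interval in GLY_PUE against GLY was -0.81 to 0.55. The authors' deposited table gives NFKB2 in GLY_PUE against GLY a log2 ratio of -0.33 with a q-value of 2.9e-41, where edgeR gave an adjusted p of 0.959. The GLY libraries span 1989 to 3505 reads of NFKB2, and GLY_PUE replicates 1 and 2 lie inside that span.

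The interaction, which asks whether PUE shifts the response to GLY, passed the threshold for none of the 5 genes and for 0% of all genes by edgeR, with 33 genes (0.962%) at an unadjusted p under 0.05 and 0 by DESeq2. That share, too, lies below the 0.05 expected without any difference, so the test was conservative. The estimates on the log2 scale were -0.82 for CXCL8, 0.73 for CSF2, -0.33 for NFKB2, -0.11 for ICAM1 and -0.27 for IL1R1, each with an adjusted p of 0.999.

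Few other genes of the NF-kB machinery were in the table. Its other subunits were covered by RELB, the partner of p52, and REL, so 3 of the 5 subunit genes were present with NFKB2. RELB had 21.24, 20.58 and 15.18 FPKM in GLY_PUE, 34.79, 19.73 and 15.5 in GLY, 12.87, 12.4 and 6.61 in PUE and 13.96, 14.24 and 6.42 in untreated cells. All GLY_PUE and GLY libraries lay above all PUE and untreated ones, and GLY replicate 1 was the highest, as for NFKB2. RELB rose in GLY cells with a log2 fold change of 1.03 (SE 0.39, adjusted p = 0.0268 by edgeR), a call that ended, among others, without GLY replicate 1 (0.62, adjusted p = 0.123) and without untreated replicate 3 (0.74, adjusted p = 0.101). RELB kept this call in 10 of 13 alternatives. In GLY_PUE it had 0.73 with an adjusted p of 0.0950, or 0.80 with an adjusted p of 0.00843 when the replicate number was a block and 1.70 with an adjusted p of 0.0159 under TMM. REL had -0.96 in GLY and -0.23 in GLY_PUE cells, and neither passed, with 0.084 and 0.77 under TMM. In GLY it passed without GLY replicate 2 (-1.54, adjusted p = 0.0159).

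Of 11 inhibitors on the list, 2 were in the table. NFKBIZ, a nuclear IkB protein, had a log2 fold change of 1.09 in GLY_PUE (adjusted p = 0.0399 by edgeR), a call that ended when any 1 of the GLY_PUE or untreated libraries was left out, with values from 1.01 to 1.19. NFKBIZ kept this call in 6 of 13 alternatives. It had 0.71 in GLY (adjusted p = 0.144), where replicate 1 was low at 0.22 FPKM against 0.88 and 1.07, and 1.14 without that library (adjusted p = 0.00224). Under TMM it was 1.76 in GLY with an adjusted p of 0.00429. TNFAIP3, the deubiquitinase A20 that ends the signal, had 1.01 in GLY_PUE (adjusted p = 0.0855, or 1.12 and 0.0346 with the replicate block and 1.97 and 0.0125 under TMM) and 0.48 in GLY (adjusted p = 0.382). Of 25 adaptors and kinases upstream, 3 were in the table. TRAF1, an adaptor that is itself a target, rose by 1.05 in GLY cells (adjusted p = 0.0104) and had 0.67 in GLY_PUE (adjusted p = 0.0714, or 0.69 and 0.0303 with the block and 1.64 and 0.00479 under TMM). The kinase gene IKBKE fell by 1.03 in GLY with library totals (adjusted p = 0.00556), a direction that turned to 0.19 under TMM. MAP3K8, a kinase that feeds into the pathway, fell by 1.44 in GLY (adjusted p = 0.0061) and by 1.21 in GLY_PUE (adjusted p = 0.0148) with library totals, while under TMM the values were -0.32 and -0.18 and neither passed. In GLY_PUE its call also ended without GLY_PUE replicate 1 (-1.07, adjusted p = 0.0580) and without untreated replicate 3 (-0.88, adjusted p = 0.0730).

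Cytokines on the list of NF-kB targets were represented by 5 of 26, CXCL8 and CSF2 included, of which 4 rose and 0 fell in GLY and in GLY_PUE against untreated cells, where 19.7% and 20.2% of all genes were called higher and 64.6% and 57.1% lower. The list had a median log2 fold change of 2.02 in GLY, beside -1.15 over all genes, with CXCL8 and CSF2 counted in that median. As these genes were picked for study, they are also left out: 2 of the other 3 rose and 0 fell in GLY and in GLY_PUE. IL32, a proinflammatory cytokine, had 8.39, 6.63 and 10.42 FPKM in GLY_PUE, 19.02, 7.21 and 10.13 in GLY, 3.75, 3.46 and 1.57 in PUE and 3.4, 3.9 and 1.61 in untreated cells. It rose by 2.02 in GLY (SE 0.46, adjusted p = 0.00227 by edgeR) and by 1.51 in GLY_PUE cells (SE 0.46, adjusted p = 0.0109), or 1.02 with an adjusted p of 0.0715 in GLY_PUE without the 4 libraries numbered 3. IL23A, the p19 subunit of interleukin 23, rose by 1.07 in GLY (SE 0.27, adjusted p = 0.00394). Its 0.62 in GLY_PUE had an adjusted p of 0.04997, just under the threshold, and leaving out any 1 library other than GLY_PUE replicate 3 ended that call, with values from 0.48 to 0.71. CX3CL1, a membrane-bound chemokine, did not pass, with -0.68 in GLY, which was 0.45 under TMM, and -1.15 in GLY_PUE cells, although -1.19 passed in GLY_PUE with the block (adjusted p = 0.0128).

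The list of other targets had 7 of 27 genes in the table, including NFKB2, ICAM1 and RELB. In GLY 4 rose and 2 fell, beside 19.7% and 64.6% of all genes. In GLY_PUE 1 rose and 2 fell, beside 20.2% and 57.1% of all genes. With the replicate block 5 rose and 2 fell in GLY_PUE, where 761 of 3429 genes were called higher and 2165 lower. Under TMM 4 rose in GLY, 5 rose in GLY_PUE and 0 fell in either, beside 23.7% and 23.8% of all genes called higher. With NFKB2 and ICAM1 left out and library totals as scaling, 3 of 5 rose and 1 fell in GLY. In GLY_PUE 0 of these 5 rose and 1 fell. LCN2, a secreted protein that binds iron carriers, had 190.44, 199.98 and 191.97 FPKM in GLY_PUE, 416.83, 232.86 and 168.32 in GLY, 145.47, 146.5 and 41.31 in PUE and 145.49, 146.41 and 44.94 in untreated cells. Its log2 fold change in GLY was 1.28 (SE 0.52, adjusted p = 0.0348 by edgeR), and the call ended without GLY replicate 1 (0.84, adjusted p = 0.162) and without untreated replicate 3 (0.90, adjusted p = 0.112). In GLY_PUE it had 0.79 with an adjusted p of 0.161, or 1.04 and 0.0238 with the block and 1.74 and 0.0461 under TMM.

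**Figure D4:**
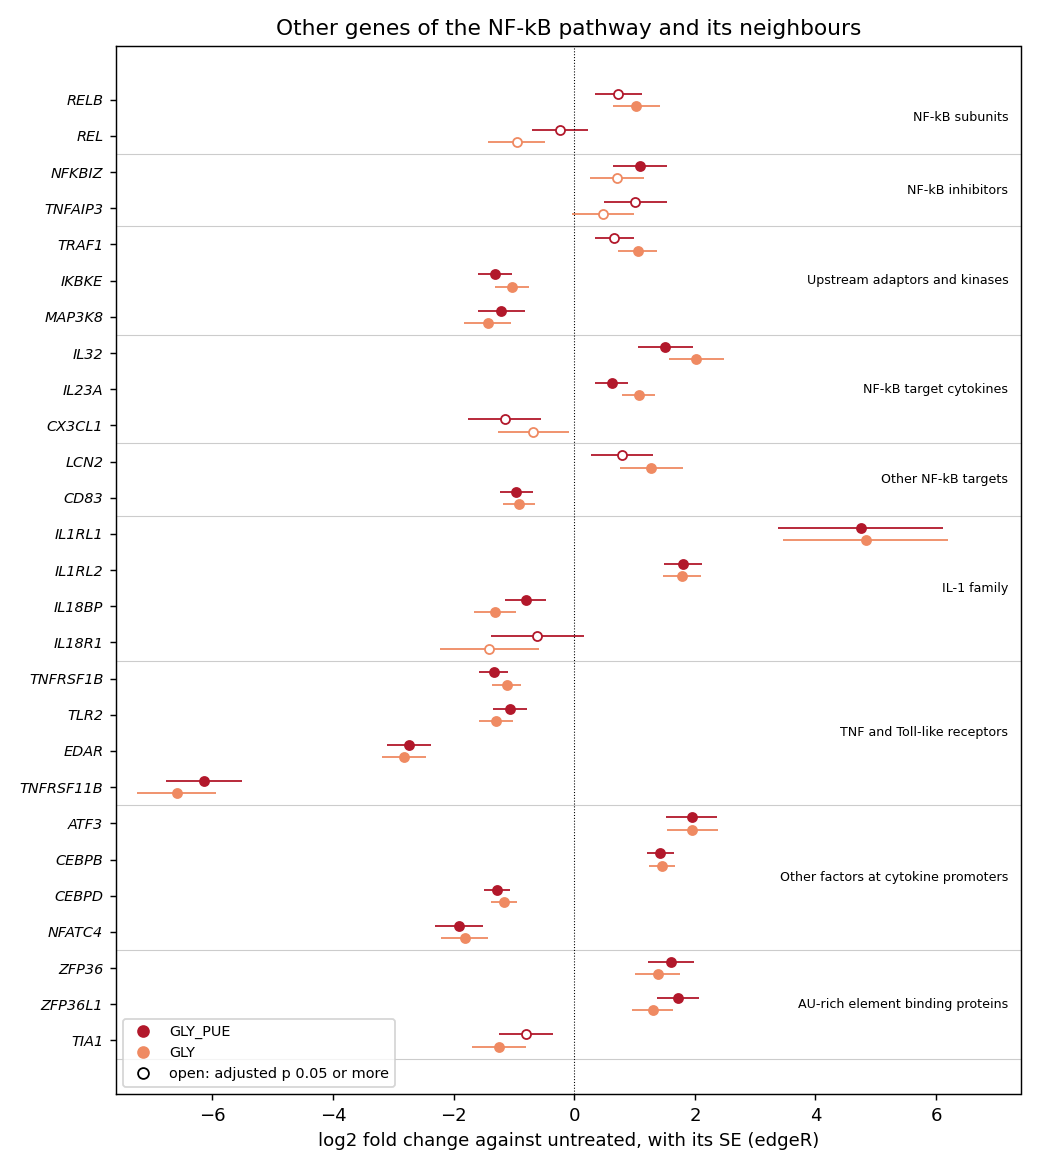
Log2 fold changes against untreated cells (horizontal axis, library totals as scaling) with their SE for up to 4 genes of each list in GLY_PUE (dark) and GLY (light), by edgeR; open points have an adjusted p of 0.05 or more. TNFRSF11B lies farthest to the left and IL1RL1 farthest to the right, and under TMM the filled points of IKBKE, CD83, TNFRSF1B and CEBPD in GLY and of CD83 and IL18BP in GLY_PUE cross to the other side of 0, as do the open points of REL and CX3CL1 in GLY and of REL, IL18R1 and TIA1 in GLY_PUE.

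Beside IL1R1, 4 of the other interleukin 1 family genes were in the table, for 5 of 19. Of the 5, 3 rose and 1 fell in both GLY and GLY_PUE against untreated cells, beside 19.7% and 64.6% of all genes in GLY and 20.2% and 57.1% in GLY_PUE. Under TMM 3 rose and 0 fell in both, beside 23.7% and 10.1% of all genes in GLY and 23.8% and 11.5% in GLY_PUE. With IL1R1 left out and library totals as scaling, 2 of 4 rose and 1 fell in both. IL1RL2, the receptor for interleukin 36, rose by 1.79 in GLY (SE 0.32, adjusted p = 0.00053 by edgeR) and by 1.80 in GLY_PUE cells (SE 0.32, adjusted p = 0.000553). IL1RL1, the receptor for interleukin 33, had 15, 20 and 115.87 estimated reads in GLY_PUE, 9.43, 8 and 144.07 in GLY, 2, 1 and 2 in PUE and 0, 3.36 and 2.32 in untreated cells. Replicate 3 held most of its reads in GLY_PUE and GLY. Its log2 fold change in GLY was 4.83 (SE 1.37, adjusted p = 0.00719) and 2.20 without GLY replicate 3 (adjusted p = 0.0889) and 5.51 without untreated replicate 2 (adjusted p = 0.0172). IL18BP, the soluble inhibitor of interleukin 18, fell by 1.31 in GLY cells with library totals (SE 0.35, adjusted p = 0.00529) but had -0.16 under TMM (adjusted p = 0.851), and IL18R1 did not pass, but did in GLY without GLY replicate 3 (-2.77, adjusted p = 0.0232). Interleukin 1 itself, as IL1A or IL1B, was not analysed here. On the list of binding and signalling partners, 2 of 14 genes were in the table, RELB and ITGB2, the integrin chain that pairs to bind ICAM1. ITGB2 had -1.65 in GLY_PUE (adjusted p = 0.0541, or -1.50 and 0.00124 with the replicate block) and -1.46 in GLY cells (adjusted p = 0.0733). Its values passed in GLY without GLY replicate 3 (-2.09) or untreated replicate 1 or 2 (-1.78 and -1.80), and in GLY_PUE without untreated replicate 1 or 2 (-1.96 and -1.98). Without untreated replicate 3 they were -0.63 in GLY_PUE and -0.45 in GLY.

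Receptors of the TNF and Toll-like families were represented by 12 genes in the table, of which 11 were tested. With library totals 3 rose and 7 fell in GLY and in GLY_PUE against untreated cells. These shares are near those of all genes, 19.7% higher and 64.6% lower in GLY and 20.2% and 57.1% in GLY_PUE, and the median of -1.18 in GLY is near the -1.15 of all genes. Under TMM, 3 rose and 2 fell in GLY, beside 23.7% and 10.1% of all genes, and 4 rose and 2 fell in GLY_PUE, beside 23.8% and 11.5%. TNFRSF11B, the decoy receptor osteoprotegerin, had 0.34, 0.27 and 0.14 FPKM in GLY_PUE, 0.04, 0.2 and 0.3 in GLY, 11.7, 12.29 and 26.81 in PUE and 12.63, 12.29 and 28.97 in untreated cells. It was nearly absent from all GLY_PUE and GLY libraries, and its log2 fold change was -6.14 in GLY_PUE (SE 0.63, adjusted p = 3.15e-05 by edgeR) and -6.60 in GLY (SE 0.65, adjusted p = 2.25e-05). EDAR, the ectodysplasin receptor, fell by 2.73 in GLY_PUE (SE 0.37, adjusted p = 0.00013) and by 2.82 in GLY (SE 0.37, adjusted p = 9.81e-05).

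Factors other than NF-kB that bind cytokine promoters were represented by 10 of 18 genes, of which 6 rose and 3 fell in GLY and 6 rose and 2 fell in GLY_PUE, beside 19.7% and 64.6% of all genes in GLY and 20.2% and 57.1% in GLY_PUE. Under TMM 7 rose and 0 fell in each, beside 23.7% and 10.1% of all genes in GLY and 23.8% and 11.5% in GLY_PUE. CEBPB, which binds beside NF-kB at the CXCL8 promoter, had 161.81, 162.94 and 157.19 FPKM in GLY_PUE, 172.03, 158.39 and 161.17 in GLY, 64.84, 67.06 and 47.87 in PUE and 62.58, 70.09 and 46.35 in untreated cells. All GLY_PUE and GLY libraries lay above all PUE and untreated libraries, with a log2 fold change of 1.43 in GLY_PUE (SE 0.22, adjusted p = 0.000251 by edgeR) and 1.46 in GLY (SE 0.22, adjusted p = 0.00021). ATF3, a stress-induced factor, rose by 1.95 in GLY_PUE (SE 0.42, adjusted p = 0.00185) and by 1.96 in GLY cells (SE 0.42, adjusted p = 0.00164). Of proteins that bind the AU-rich elements of cytokine mRNAs, 3 of 8 were in the table, of which 2 rose and 1 fell in GLY, beside 19.7% and 64.6% of all genes, and 2 rose and 0 fell in GLY_PUE, beside 20.2% and 57.1%. With the replicate block 1 also fell in GLY_PUE, TIA1, which had -0.82 (adjusted p = 0.0464), against -0.80 (adjusted p = 0.110) without the block. Under the block 2165 of 3429 genes were called lower in that comparison. ZFP36, the decay factor tristetraprolin, rose by 1.60 in GLY_PUE (SE 0.38, adjusted p = 0.00323) and by 1.38 in GLY cells (SE 0.38, adjusted p = 0.00623). In PUE against untreated cells and in GLY_PUE against GLY, 0 genes of any list passed.

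The pattern of each gene over the 12 libraries was compared with that of every listed gene with a mean count of at least 10, as the root mean square of the differences in log2(FPKM + 0.1) after centring, over 3219 genes. NFKB2 was closest to NAGS, at 0.0745, followed by DNTTIP1 and LAD1. The same 3 genes came first with pseudocounts of 1 and 0.01. NAGS had 14.07, 14.71 and 12.89 FPKM in GLY_PUE, 21.48, 14.71 and 12.78 in GLY, 8.92, 7.77 and 5.32 in PUE and 8.86, 9.61 and 5.44 in untreated cells, so it too was highest in GLY replicate 1 and lowest in replicate 3 of each group. ICAM1 was closest to CNP, at 0.101, then VIPR1 and RGMA. IL1R1 was closest to GREM1, at 0.252, then TSLP and RAB39B, CSF2 to HMOX1, at 0.452, then KRTAP2-3 and COX6B2, and CXCL8 to RNF128, at 0.416, then TMEM41B and SH3BGRL2. TSLP, an epithelial cytokine, had 3.83, 2.54 and 5.2 FPKM in GLY_PUE, 1.57, 2.96 and 6.03 in GLY, 0.77, 0.87 and 0.79 in PUE and 0.72, 0.72 and 0.71 in untreated cells. Among the 5 genes themselves, CXCL8 and IL1R1 were the closest pair, at 0.718, and CSF2 and ICAM1 the farthest, at 2.28. Of the 15 genes named as closest, 4 were also among the closest with a pseudocount of 1 and 8 with 0.01. These are descriptions over libraries that share treatment and depth.

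Markers of the cell line's own tissue and of other cells moved with GLY as well. Of 11 colon epithelial markers, VIL1 and CDX2 were in the table, and their summed level was 4.98 to 5.69 FPKM in GLY_PUE, 4.16 to 7.29 in GLY, 25.53 to 33.17 in PUE and 24.95 to 31.86 in untreated libraries. In GLY 2 of 2 were called lower by edgeR, beside 64.6% of all genes, and under TMM 1, beside 10.1%. VIL1 had a log2 fold change of -1.32, near the median of -1.15 over all genes. CDX2 had -2.44 and kept its call in 13 of 13 alternatives. Of 13 leukocyte markers, CD14, ITGAX and CD68 were in the table, and their sum was 10.12 to 13.73 FPKM in GLY_PUE, 9.73 to 13.99 in GLY, 3.12 to 3.63 in PUE and 2.76 to 3.99 in untreated libraries. Most of that sum was CD68, a lysosomal protein. CD14 lay at 0.03 to 0.13 FPKM in GLY_PUE and GLY libraries and 0.46 to 0.70 in PUE and untreated ones. ITGAX lay at 0.24 to 0.74 FPKM in GLY_PUE and GLY libraries and at 0.07 to 0.25 in the others. In GLY 2 of the 3 were called higher and 1 lower by edgeR, beside 19.7% and 64.6% of all genes. The log2 fold change of ITGAX was 1.40 (adjusted p = 0.041), a call kept in 9 of 13 alternatives. Of 8 fibroblast markers, PDGFRB was in the table, at 0.31 to 0.66 FPKM in GLY_PUE, 0.29 to 0.62 in GLY, 0.12 to 0.16 in PUE and 0.15 to 0.18 in untreated libraries, and of 5 endothelial markers 0 were. Defining markers such as EPCAM, KRT8 and PTPRC were not analysed here, so the cell line's label could not be checked further. The part of these shifts in the results above was not tested.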

How the data were processed

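RNA was measured by RNA-seq on the BGISEQ-500 platform from 0.5 µg of RNA per library, per the labels' protocols, in 12 libraries of 4 groups. The authors deposited 1 table of 3699 genes. Its read columns are estimated counts without normalization, per the file headers, and 58.2% of these were whole numbers within 0.001. Beside them stands an expression value that the deposited headers leave without a unit and that behaves as FPKM. The authors also deposited log2 ratios with p-values and q-values, used here only where named. Each of the 3699 genes reached a log2 ratio of 1 in either direction together with a q-value of 0.001 or less in some comparison of the authors. The submitters' processing notes name TopHat and DESeq 1.32.0, with no role. Which tool counted reads, on which build and annotation, is not given in the sources used here.

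The table holds part of each library, so library totals were derived by dividing counts by FPKM in 625 genes that had 100 counts and 5 FPKM or more throughout. Their scale came from 39 genes with a single transcript in GENCODE 29 (95% interval 19.99 to 20.67 M reads for untreated replicate 1). A count of 0 allows up to 3 counts, or 0.140 to 0.152 CPM, for counting error only. Rounded counts went into edgeR 4.0.16 under R 4.3.3 (filterByExpr, robust quasi-likelihood fit of 4 groups over all 12 libraries, totals as library sizes, no TMM). P-values were adjusted by Benjamini-Hochberg over the 3429 genes that passed the filter, and an adjusted p below 0.05 made a call. All 5 genes passed the filter over the 12 libraries, CXCL8 and IL1R1 through the groups in which they are high. In fits on only the libraries compared, CXCL8 did not pass it in GLY or in PUE against untreated cells. IL1R1 did not pass it in PUE against untreated cells. The fit was tested on simulated data. Alternatives were TMM, RLE, DESeq2 1.42.0 with the recovered totals, no filter, only the libraries of the groups compared, the replicate number as a block, no libraries numbered 3, and each library left out.

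The replicate number was checked through the correlation of same-numbered libraries' deviations from their group means. It was above 0.1 for all 3 pairs of PUE with untreated (0.388 to 0.643). The same held for GLY_PUE with untreated (0.174 to 0.385) and GLY_PUE with PUE (0.142 to 0.394), so these group pairs passed the check. Of them, only PUE with untreated had every same-number correlation above the best with another number. For number 1 it was 0.174 in GLY_PUE with untreated and 0.142 in GLY_PUE with PUE, where another number reached 0.243 in each. No label states a pairing, and for number 1 of GLY_PUE the data did not show one. Other pairs of groups did not pass.

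The 5 genes, the gene lists and the markers were chosen with earlier results of these data known. Named genes were, per list, the up to 4 with the smallest p in GLY against untreated cells, and, per gene, the 3 of most similar pattern. RELB is on 3 lists. Promoters came from RefSeq's table for GRCh38.p14. Figures were drawn with matplotlib 3.10.9.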

Additional observations from a re-analysis of the deposited data

How the results depend on the processing

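Over all alternatives, the log2 fold changes of the 5 genes kept their direction and their side of the threshold in 364 of 412 values and lost the call in 25. The remaining 23 were values without a call whose direction turned. The 34 other named genes kept both in 761 of 879 values, lost the call in 62, gained it in 35, turned from a call in 11 and turned without a call in 10. The count of the 5 genes called lower dropped to 0 under TMM and under RLE in GLY against untreated cells, in GLY_PUE against untreated cells and in GLY_PUE against PUE, because ICAM1 lost its call. Without 1 library the count called higher was 3 to 4 in GLY against untreated cells, 2 to 3 in GLY_PUE against untreated cells and 2 to 4 in GLY_PUE against PUE, and the count called lower stayed at 1. The count called higher was 2 without GLY_PUE replicate 2 in GLY_PUE against untreated cells and against PUE. Against PUE it was also 2 without GLY_PUE replicate 1 or PUE replicate 3.

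The called log2 fold changes that turned did so in GLY against untreated cells under TMM (IKBKE 0.19, CD83 0.27, TNFRSF1B 0.091, CEBPD 0.022) and RLE (IKBKE 0.11, CD83 0.20, TNFRSF1B 0.016), and in GLY_PUE against untreated cells under TMM (CD83 0.060, IL18BP 0.16) and RLE (CD83 0.032, IL18BP 0.14). Without a call, REL and CX3CL1 in GLY and REL, IL18R1 and TIA1 in GLY_PUE turned under the same scalings. Both scalings are built to place the middle of a list that mostly fell at 0.

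With the replicate number as a block, 4 of the 5 genes were called higher and 1 lower in each comparison with GLY on one side, and 0 in the others, so no call of theirs changed. Under the block most genes were called. In GLY against untreated cells 714 of 3429 genes were higher and 2372 lower. In GLY_PUE the counts were 761 and 2165 against untreated cells, and 768 and 2181 against PUE. For CXCL8 the blocked log2 fold change was 2.47 in GLY and 2.36 in GLY_PUE against untreated cells. GLY with untreated cells did not pass the pairing check (correlations 0.068 to 0.26), and there REL (-1.03), IL18R1 (-1.66) and ITGB2 (-1.35) gained a call under the block. CXCL8 had 1 to 9 reads in PUE and untreated libraries, which limits its precision.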
